A study of Solanum lycopersicum with 4 samples.

Results

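Genes listed as extra copies in the tomato M82 annotation were examined in leaves of *ddm1*, the double mutant of the *SlDDM1a* and *SlDDM1b* genes, and of the wild type (WT). In the count table, such a copy carries the identifier of another gene followed by _ and a number, as in Solyc01g108513.1_1. Every row of this kind was taken, except copies of the genes whose identifier starts with Solyc00g. This gave 119 copies of 35821 rows, which belong to 51 identifiers. For 118 of them the table also holds the row without the suffix, here called the reference row. There are 50 reference rows, since copies of 1 identifier share theirs. The 66 suffixed Solyc00g rows were left out by the same rule.

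Poly(A) RNA of the fourth leaf was sequenced at a plant age of 1 month, in 2 *ddm1* libraries and 2 WT libraries. Plants of both genotypes were of cultivar M82 and grew under the same conditions, and *ddm1* carried mutations in both DDM1 genes. The *ddm1* libraries held 6610591 and 6887057 counts and the WT libraries 5827940 and 5462981 counts. In whole leaves, fewer cells of a type and less RNA per cell cannot be told apart. The table does not pair nuclear identifiers with gene names, so no function is given for any copy, and the DDM1 genes and leaf marker genes could not be looked up.

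DDM1 is a chromatin remodeler of plants that lets DNA methyltransferases reach heterochromatin. In Arabidopsis, its loss lowers DNA methylation over transposons and repeats, and part of them become transcribed. Duplicated genes arise by unequal exchange between neighbouring repeats, by copying of longer segments and by transposition. Near-identical copies are hard to tell apart with short reads, since a read that fits several places equally well is given a low mapping quality by the aligner. According to the header of the table, reads were counted per strand and with a mapping quality of at least 30, over the whole span of a gene. A count on a copy therefore comes mostly from reads that fitted that copy better than any other place.

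Most copies lay on the chromosome of their reference row. Of the 119 copies, 75 (63.0%) were on the chromosome of the reference row, 35 were on unplaced contigs, 8 were on another chromosome and 1, Solyc11g063570.1_1, had no reference row. Copies were present on every chromosome except chromosome 5, with 27 on chromosome 1, 12 on chromosome 2 and 11 on chromosome 3. The contigs held 128 rows in all, of which these 35 made up 27.3%. On the same chromosome, the starts of copy and reference row were a median of 39469 bp apart, from 2335 to 673122 bp. The distance was at most 50 kb in 39 of these 75 copies, and 66 of them kept the strand of the reference row while 9 were inverted. Copies were also as long as their reference rows. The lengths were equal in 112 of 118 copies, differed by 1 to 3 bases in 5, and by −163 bases (copy minus reference row) in Solyc12g005615.1_1. The median length of a copy was 1635 bp, against 2139 bp over all rows of the table. Around the 84 copies on chromosomes, a median of 59.5 rows lay within 500 kb, against 106.0 for all rows on chromosomes. The low median came from 29 copies of Solyc01g038234.1, Solyc01g038233.1 and Solyc08g150110.1, which had 10 to 28 rows within that distance, while the other 55 copies had a median of 117 rows.

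**Figure D1:**
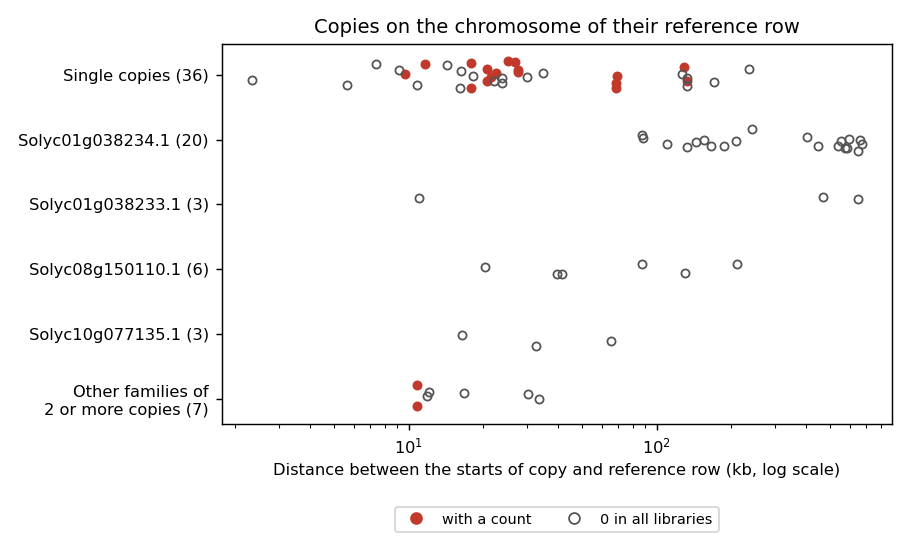
Distance between the start of each copy and that of its reference row, in kb on a log scale, for the 75 copies on the chromosome of the reference row, by family. Filled red points are copies with a count in any library and open points are copies at 0 in all 4. The 36 single copies lie mostly at short distances, with a median of 23070 bp, whereas the copies of Solyc01g038234.1 reach 673122 bp.

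Among the 51 identifiers, 42 had a single copy, and 5 families with at least 5 copies held 68 of the 119 copies (57.1%). The largest family was Solyc02g004000.1, whose 25 copies of about 3932 bp lay on 24 unplaced contigs, with the reference row on another contig. Solyc01g038234.1 had 20 copies on chromosome 1. Together with their reference row they formed an array of 21 rows between 35436564 and 36198613 on the minus strand (M82 assembly, 762050 bp), and the 4 rows of Solyc01g038233.1, 3 copies and the reference row, lay inside it on the same strand. Of the 20 intervals between neighbouring starts, 8 fell within 10892 to 11045 bp. Solyc08g150110.1 had 6 copies on chromosome 8, between 9993843 and 10245091 (251249 bp) with the reference row included. Solyc10g077135.1 had 12 copies, 3 of them on chromosome 10 between 60699910 and 60766348 with the reference row, and 9 on 6 contigs. In that family, 5 of the 6 intervals on the chromosome and on contigs with several copies fell within 16314 to 16328 bp. The 5 copies of Solyc08g079210.1, of 360 bp, were spread over chromosomes 2, 7, 8 and 12.

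In 6 places, genes close to each other had copies close to each other, at nearly the same distance for each gene. These stretches held 13 copies. On chromosome 2, Solyc02g084480.3_1, Solyc02g075610.4_1 and Solyc02g075620.4_1 lay between 47252403 and 47287566, and their reference rows between 47183499 and 47218775, 68791 to 68904 bp away. On chromosome 3, Solyc03g097650.3_1 and Solyc03g097670.4_1 lay between 56081701 and 56098975, 27467 to 27473 bp from their reference rows. On chromosome 1, Solyc01g106220.4_1 and Solyc01g106250.4_1 lay between 88420147 and 88453203, 20593 to 20595 bp from theirs. There the reference row Solyc01g106250.4, which starts at 88429187, lay between the copies, so reference rows and copies alternated. The other stretches held copies of Solyc02g073570.1 and Solyc02g073580.1 on chromosome 2, of Solyc09g089573.1 and Solyc09g089577.1 on chromosome 9, and of Solyc12g055680.2 and Solyc12g055683.1 on chromosome 12.

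Most copies had no count in either genotype. A count in any library was present for 24 of the 119 copies (20.2%), against 19 of 50 reference rows (38.0%), 29 of 66 Solyc00g copies (43.9%) and 28104 of all 35821 rows (78.5%). The other 95 copies were at 0 in all 4 libraries. A count of 0 allows up to 3 counts, which is 0.436 to 0.549 counts per 1000000 counts of a library (CPM) depending on the library, and this covers counting error only. The share at 0 was 94.1% for the 68 copies in families of at least 5 copies and 60.8% for the other 51 copies. Those 68 copies come from only 5 families and are not independent of each other. Of them, the 4 with a count were all copies of Solyc02g004000.1, so a link with family size cannot be drawn. The part of the mapping-quality minimum in these zeros was not tested. Per library, counts were present on 17 and 20 copies in *ddm1* and on 18 and 13 copies in WT.

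**Figure D2:**
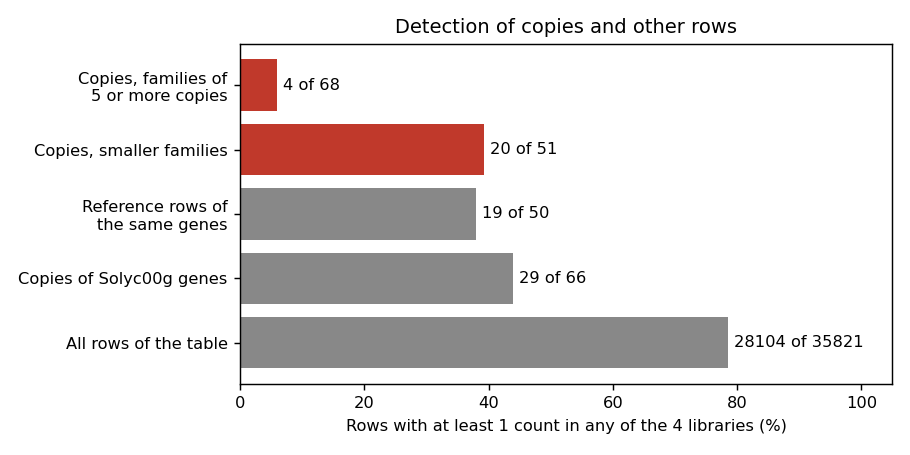
Percent of rows with at least 1 count in any of the 4 libraries, by kind of row, with the number of rows beside each bar. Copies in families of at least 5 copies had the lowest share (4 of 68, 5.88%) and the table as a whole the highest (28104 of 35821, 78.5%).

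In 5 of the 6 families with at least 3 copies, no count was detected at this depth in either genotype. All copies of Solyc01g038234.1, Solyc10g077135.1, Solyc08g150110.1, Solyc08g079210.1 and Solyc01g038233.1 were at 0 in all 4 libraries, and so were their reference rows. Within the span of the Solyc08g150110.1 array lay 3 other rows, which were at 0 too, whereas 2 other rows within the span of Solyc03g083990.1 and its copies had 29 counts in all. In Solyc02g004000.1, 4 of 25 copies had a count. Solyc02g004000.1_15 had 5 and 2 counts in *ddm1* and 9 and 3 counts in WT. Solyc02g004000.1_9 had 3 and 1 counts in *ddm1* and 10 and 0 counts in WT. Copies _13 and _16 had 1 count each. Summed over its copies, the family had 8 and 4 counts in *ddm1* and 20 and 3 counts in WT, with overlap between the genotypes, and its reference row had 1 count in all.

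Summed over all copies, the raw counts were higher in both *ddm1* libraries than in both WT libraries, but the values in CPM overlapped between the genotypes. The copies received 162 and 215 counts in *ddm1* and 159 and 123 counts in WT. Relative to the total of the library this was 27.9 ± 4.75 CPM in *ddm1* and 24.9 ± 3.37 CPM in WT (SD, n = 2 each), a difference of 2.96 (two-sided exact permutation test, p = 0.667, where 2 against 2 libraries cannot give less than 0.33). Without *ddm1* replicate 2 the difference turned to −0.39. Few genes carried the sum: the 3 copies with most counts held 356 of the 659 counts (54.0%).

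Counts were high enough for a test across the whole table in 7 copies. Of 21289 genes tested with edgeR's quasi-likelihood test, 25.3% were higher (up-regulated) and 23.7% lower (down-regulated) in *ddm1* at a Benjamini-Hochberg adjusted p-value under 0.05. Among the 7 copies, 2 were up-regulated, Solyc01g108513.1_1 and Solyc03g097670.4_1, and 0 were down-regulated (0 also at an unadjusted p-value under 0.05 and with DESeq2). With DESeq2, 18.4% of all genes were down-regulated, and the share at the unadjusted cut is not given here. The up-regulated share, 2 of 7, was near that of all genes. The median log2 fold change was 0.30 for the 7 copies and 0.02 for all genes tested, and that of the copies turned to −0.21 without *ddm1* replicate 2. The 7 copies were those with enough counts and do not stand for the 119. In the following, values in CPM were normalized by the trimmed mean of M-values (TMM).

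Solyc01g108513.1_1 (chromosome 1, 90077635 to 90078948, plus strand) had 17 and 25 counts in *ddm1* and 3 and 0 counts in WT. Both *ddm1* libraries were far above both WT libraries, at 3.04 ± 0.692 CPM in *ddm1* and 0.261 ± 0.369 CPM in WT (SD, n = 2 each). The log2 fold change was 3.40 (SE 0.81, adjusted p = 0.0136 by edgeR with Benjamini-Hochberg adjustment). On the 3 WT counts, the ratio of summed counts per library total was 11.7, with a 95% counting interval from 3.74 to 59.1. Another gene, Solyc01g108517.1, overlaps this copy on the opposite strand and had 7 and 11 counts in *ddm1* and 5 and 6 counts in WT. The copy kept its call when each library was left out in turn.

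Solyc03g097670.4_1 (chromosome 3, 56087956 to 56098975, minus strand) had 17 and 27 counts in *ddm1* and 4 and 6 counts in WT. The genotypes did not overlap, at 3.19 ± 0.892 CPM in *ddm1* and 0.913 ± 0.306 CPM in WT (SD, n = 2 each). The log2 fold change was 1.79 (SE 0.50, adjusted p = 0.0247 by edgeR with Benjamini-Hochberg adjustment). This call did not hold with DESeq2 (adjusted p = 0.184), or with edgeR without *ddm1* replicate 2 (adjusted p = 0.143), without WT replicate 1 (adjusted p = 0.123) or without WT replicate 2 (adjusted p = 0.0668). Its neighbour in the same copied stretch, Solyc03g097650.3_1, had 5 and 3 counts in *ddm1* and 0 in both WT libraries. Set against a floor of 3 counts over the WT group, the observed *ddm1* counts were 2.23-fold higher. This leaves out the counting error of the *ddm1* counts and is no lower bound. The copy had too few counts for the main test. It did not pass when every row with a count was tested (adjusted p = 0.0803 by edgeR).

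**Figure D3:**
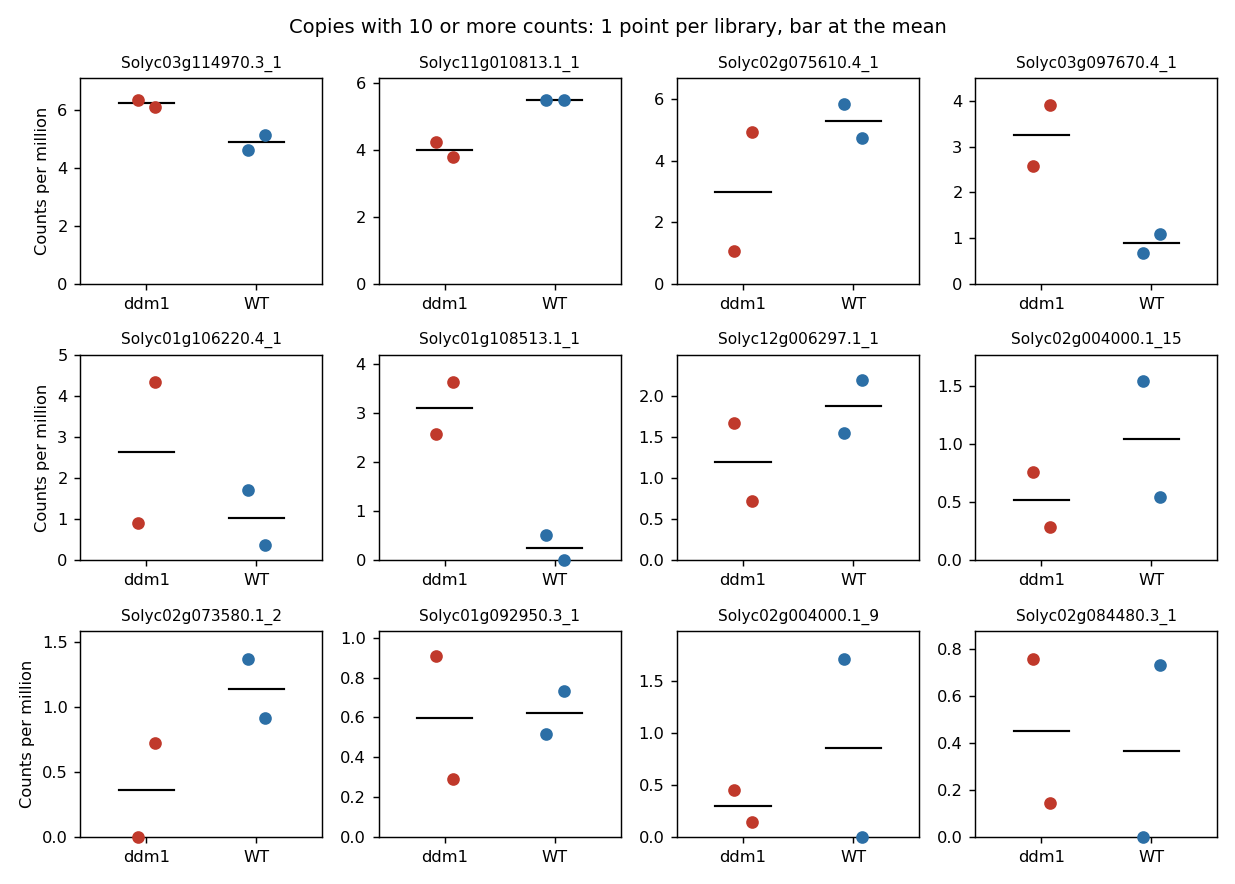
CPM per library of the 12 copies with at least 10 counts, relative to the total count of the library, with *ddm1* left of WT in each panel, 1 point per library and a black line at the mean. Solyc01g108513.1_1 and Solyc03g097670.4_1 are higher in both *ddm1* libraries than in both WT libraries, while Solyc02g075610.4_1 and Solyc01g106220.4_1 have *ddm1* libraries that lie far apart.

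The 5 other tested copies did not pass the threshold. Solyc03g114970.3_1, the copy with most counts, had 42 and 42 counts in *ddm1* and 27 and 28 counts in WT. Its level was 6.12 ± 0.266 CPM in *ddm1* and 4.99 ± 0.404 CPM in WT (SD, n = 2 each), without overlap, and its log2 fold change was 0.30 (SE 0.32, adjusted p = 0.480 by edgeR's quasi-likelihood test). The larger number of counts in *ddm1* thus shrank once library size was taken into account.

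Solyc11g010813.1_1 had 28 and 26 counts in *ddm1* and 32 and 30 counts in WT, with *ddm1* below WT in CPM and a log2 fold change of −0.51 (SE 0.33, adjusted p = 0.250 by edgeR's quasi-likelihood test). Solyc12g006297.1_1, an inverted copy, had 11 and 5 counts in *ddm1* and 9 and 12 counts in WT, which overlap, and a log2 fold change of −0.69 (SE 0.56, adjusted p = 0.343 by the same edgeR test). In neither did the difference pass the threshold.

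In the remaining copies that were tested, the value depended on single libraries. Solyc02g075610.4_1 had 7 and 34 counts in *ddm1* and 34 and 26 counts in WT, with a log2 fold change of −0.87 (SE 0.64, adjusted p = 0.295 by edgeR's quasi-likelihood test). Without *ddm1* replicate 2 it was −2.34 and passed the threshold (adjusted p = 0.0150 by edgeR), and without *ddm1* replicate 1 it was −0.14 (adjusted p = 0.837). Solyc01g106220.4_1 had 6 and 30 counts in *ddm1* and 10 and 2 counts in WT, with a log2 fold change of 1.25 (SE 0.90, adjusted p = 0.289 by edgeR's quasi-likelihood test). Without *ddm1* replicate 2 it turned to −0.25, without WT replicate 1 it was 2.72 and without WT replicate 2 it was 0.57, and none of these passed the threshold. In both genes the *ddm1* libraries differed from each other by more than the mean difference between genotypes.

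**Figure D4:**
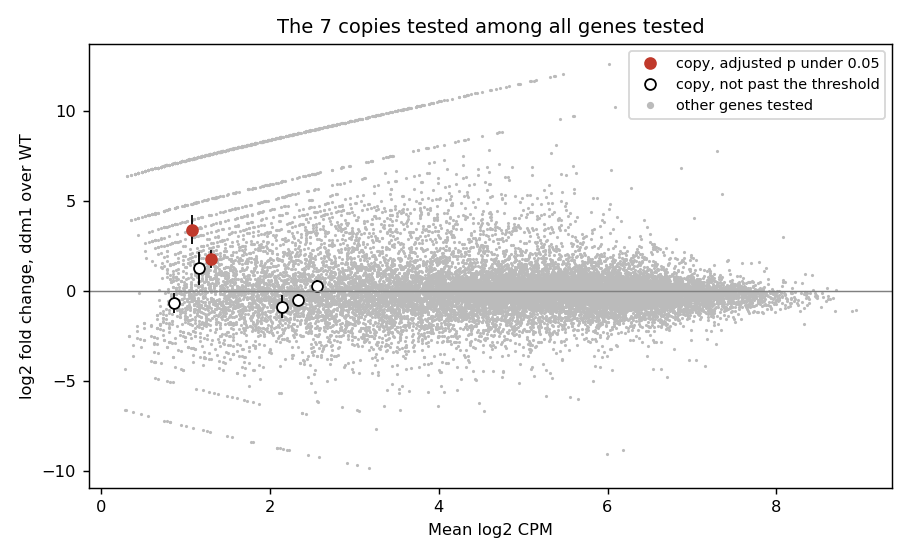
Log2 fold change of *ddm1* over WT (vertical axis) against mean log2 CPM (horizontal axis) from edgeR's quasi-likelihood fit, with the 7 tested copies as large points with bars of 1 SE and the other genes tested as grey dots. The 2 up-regulated copies, at 3.40 and 1.79, are filled red, and the other 5, drawn open, lie between −0.87 and 1.25.

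A further 17 copies had a count but too few for the test, each with at most 19 counts over the 4 libraries. Besides those of Solyc02g004000.1 described above, Solyc02g073580.1_2 had 0 and 5 counts in *ddm1* and 8 and 5 counts in WT, and Solyc02g073580.1_1, from the same family, had 0 and 1 counts in *ddm1* and 2 and 1 counts in WT. Both were lower in *ddm1* in CPM without overlap between the genotypes. For Solyc02g073580.1_1, *ddm1* replicate 2 and WT replicate 2 held 1 count each, so they were separated by library size alone. Solyc01g092950.3_1 had 6 and 2 counts in *ddm1* and 3 and 4 counts in WT, and Solyc02g084480.3_1 had 5 and 1 counts in *ddm1* and 0 and 4 counts in WT, so that the genotypes overlapped in both. Solyc04g051630.1_1, on chromosome 12 with its reference row on chromosome 6, had 4 and 3 counts in *ddm1* and 0 and 1 counts in WT. It was the only copy on another chromosome with any count. The ratio of its summed counts was 5.86, with a 95% counting interval from 0.752 to 264 that includes no difference. The other 7 untested copies outside Solyc02g004000.1 and besides Solyc03g097650.3_1 had 1 to 6 counts each.

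Over all 24 copies with a count, both *ddm1* libraries were above both WT libraries in 6 and below them in 4, whereas the genotypes overlapped in 14. Among all 28104 rows with a count, 38.3% were above and 32.3% below. When every row with a count was tested with edgeR, 20.7% of all genes were up-regulated and 18.2% down-regulated, against 2 up-regulated and 0 down-regulated of the 24 copies. At an unadjusted p-value under 0.05 there were 3 copies. The share of all rows at that cut is not given here, so this number cannot be set against it. The 2 up-regulated copies were the same as above.

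Reads were also split between each copy and its reference row. For 47 of 118 pairs a count was present on either row: on both in 21, on the copy alone in 3 and on the reference row alone in 23, where a reference row is set against each of its copies. Of these 23, 21 were copies of Solyc02g004000.1 set against the same single count in WT, and the other 2 were Solyc06g072253.1 and Solyc06g076540.1. Pairs with a single copy show the split most plainly. Of these 41 pairs, 20 had counts, and the copy had more counts than the reference row in 13, fewer in 5 and as many in 2. Their copies received 602 counts and their reference rows 273. The share on the copies was 71.3% and 65.9% in *ddm1* and 69.7% and 69.9% in WT. At 68.6% ± 3.80 in *ddm1* and 69.8% ± 0.148 in WT (SD, n = 2 each), no difference between the genotypes was detectable (two-sided exact permutation test, p = 1.0, smallest possible 0.33).

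**Figure D5:**
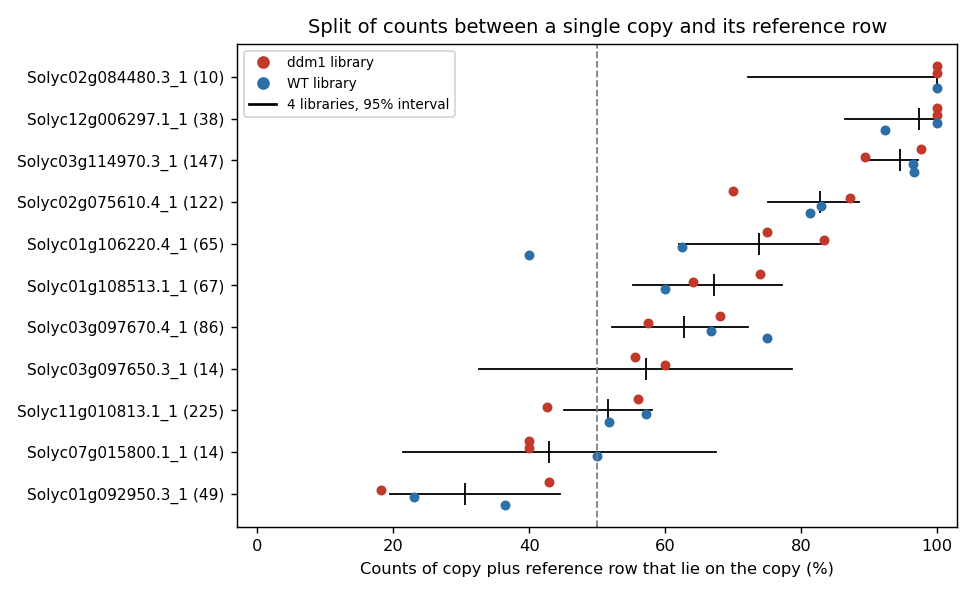
Percent of the counts of a pair that fell on the copy rather than on its reference row, for single-copy pairs with at least 10 counts, with 1 point per library and the pooled share with its 95% Wilson interval. Shares run from 30.6% for Solyc01g092950.3_1 to 100% for Solyc02g084480.3_1, and libraries with no count on either row have no point.

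The split differed widely between pairs. Of the 11 single-copy pairs with at least 10 counts, the 95% Wilson interval of the copy's share lay above 50% in 7, below 50% in 1 and included 50% in 3. The copy held 97.4% (86.5 to 99.5) in Solyc12g006297.1_1 and 94.6% (89.6 to 97.2) in Solyc03g114970.3_1, whose reference row had 1 and 5 counts in *ddm1* and 1 and 1 counts in WT. It held 82.8% (75.1 to 88.5) in Solyc02g075610.4_1 and 62.8% (52.2 to 72.3) in Solyc03g097670.4_1. The share was even in Solyc11g010813.1_1, at 51.6% (45.1 to 58.0), and lowest in Solyc01g092950.3_1, at 30.6% (19.5 to 44.5), whose reference row had 8 and 9 counts in *ddm1* and 10 and 7 counts in WT. In Solyc01g106220.4_1 the copy had 6 and 30 counts in *ddm1* and 10 and 2 counts in WT, beside 2 and 6 counts in *ddm1* and 6 and 3 counts in WT on its reference row. Its share did not overlap between the genotypes, with *ddm1* above WT, and an exact two-sided permutation test gave p = 0.33. That is the value of any pair separated in this way with 2 against 2 libraries. In the other pairs with a share in all 4 libraries the genotypes overlapped. This pair was named after its values were seen, so a difference between genotypes cannot be drawn from it. These intervals cover counting error only. Since copy and reference row may be nearly identical, the division of reads between them is uncertain, and how many reads could be placed in each was not tested.

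The reference rows of the 2 up-regulated copies also had more counts in both *ddm1* libraries than in both WT libraries. Solyc01g108513.1 had 6 and 14 counts in *ddm1* and 2 and 0 counts in WT, and Solyc03g097670.4 had 8 and 20 counts in *ddm1* and 2 and 2 counts in WT. Neither had enough counts for the main test. With every row with a count tested by edgeR, Solyc03g097670.4 had a log2 fold change of 2.41 (adjusted p = 0.0434). Solyc01g108513.1 had 2.86 and did not pass (adjusted p = 0.0710 by the same edgeR test). In that fit 1 of 19 reference rows was up-regulated and 0 down-regulated, against 20.7% and 18.2% of all rows. The reference row of Solyc03g097650.3_1 had 4 and 2 counts in *ddm1* and 0 in both WT libraries. In that stretch both copies and both reference rows thus were higher in each *ddm1* library than in either WT library, also in CPM. The same held for 38.3% of all rows with a count. The stretch was looked at because it holds an up-regulated copy, and its rows are not independent measurements. The gene that begins between the reference rows there, Solyc03g097660.3, had no row with a suffix and was at 0 in all libraries. Whether its sequence was copied was not tested.

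Only 1 pair had both rows in the main test. In Solyc11g010813.1 the reference row had 22 and 35 counts in *ddm1* and 24 and 28 counts in WT, with a log2 fold change of −0.19 (SE 0.38, adjusted p = 0.709 by edgeR's quasi-likelihood test) beside −0.51 for its copy. The difference, copy minus reference row, was −0.32, and 0.10 without *ddm1* replicate 2. With every row with a count tested, both rows of 21 pairs had a value. The median difference was then 0.19. These are not 21 separate comparisons, since 4 pairs share the reference row of Solyc02g004000.1 with its single count, 2 share that of Solyc02g073580.1, and others rest on 1 count per row. Reads of near-identical rows can be exchanged between them, so the rows of a pair are not independent measurements.

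The counts of all rows of an identifier were then added up. Such a sum does not depend on how the counted reads were divided among copies, but lacks reads under the mapping-quality minimum. With these sums, 9 of 51 families could be tested with edgeR. In this fit 25.3% of all rows were up-regulated and 23.7% down-regulated. Among the families, 2 were up-regulated and 0 down-regulated (1 and 0 with DESeq2). With DESeq2, 20.8% of all genes tested singly were up-regulated and 18.4% down-regulated. Solyc01g108513.1 had a log2 fold change of 3.26 (adjusted p = 0.0174) and Solyc03g097670.4 of 2.02 (adjusted p = 0.0147 by edgeR with Benjamini-Hochberg adjustment). Without WT replicate 2 neither passed (adjusted p = 0.0541 and 0.0617 by edgeR), and Solyc03g097670.4 did not pass without *ddm1* replicate 2 (adjusted p = 0.0794) or WT replicate 1 (adjusted p = 0.0902). Solyc02g073580.1, with 3 rows within 22326 bp on chromosome 2, had a log2 fold change of −2.16 that did not pass (adjusted p = 0.0970 by edgeR). Without *ddm1* replicate 2 it passed as lower in *ddm1* (adjusted p = 0.00948 by edgeR), as did Solyc02g075610.4 with a log2 fold change of −2.12 (adjusted p = 0.0147). The reference row of Solyc02g073580.1 had 0 and 1 counts in *ddm1* and 7 and 3 counts in WT.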

How the data were processed

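Poly(A) libraries from 2 *ddm1* and 2 WT leaf samples were compared. The authors trimmed single-end reads with Trimmomatic 0.38, mapped them to the M82 assembly with HISAT2, and removed PCR duplicates, as file names in the table header show. The authors deposited raw counts per gene from featureCounts 2.0.0, counted on the reverse strand with mapping qualities from 30 upwards, multi-mapping reads allowed and introns included. Duplicate removal on single-end reads may reduce the counts of abundant genes.

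Copies were selected by identifier. The copies and the tests were chosen with earlier results of these data known. Low-count genes were removed with filterByExpr (minimum count 10), TMM factors were computed, and genotype was tested as the only term by glmQLFit and glmQLFTest of edgeR 4.0.16 under R 4.3.3, with Benjamini-Hochberg adjustment over all genes tested. The script was tested on simulated counts. The SE beside an edgeR log2 fold change is its absolute value divided by the square root of the F statistic, not a separate estimate. Alternatives were DESeq2 1.42.0, RLE and upper-quartile factors, other filters and thresholds, a replicate block and each library left out. Leaving out copies that overlap another row on their strand changed nothing, since there were 0.

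The copies to be named were those called without overlap of the genotypes and with a log2 CPM averaging 1 or more (up to 5 each way), the 3 with most counts, the 5 largest families with their most-counted copy, and tested pairs. Other identifiers were named after their values were seen. Library totals were 5462981 to 6887057 counts, and libraries of a genotype differed beyond sampling noise (chi-square per degree of freedom 4.52 in *ddm1* and 3.89 in WT). Batches were not given, so a batch that follows genotype cannot be told apart from it.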

Additional observations from a re-analysis of the deposited data

How the results depend on the processing

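Under RLE or upper-quartile factors, and with an absolute log2 fold change over 1, the 2 up-regulated and 0 down-regulated copies kept these counts. The shares of all genes in these 3 settings are not given here. With DESeq2, 1 of 7 copies and 1 of 9 families were up-regulated, against 20.8% of all genes tested singly. With at least 10 counts required in every library, or at an adjusted p-value under 0.01, 0 copies and 0 families were up-regulated. The first of these filters left 2 copies to test. The shares of all genes under these filters are not given here, so the zeros cannot be set against them. Leaving out each library in turn left 1 library in a genotype, so numbers of copies and families called are not given for these fits. When every row with a count was tested, 1 of 19 reference rows and 3 of 22 families were up-regulated, against 20.7% of all rows tested singly.

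The median log2 fold change of the tested copies was −0.065 with at least 10 counts in every library, and −0.21 to 0.38 when each library was left out. The median difference between copy and reference row was 0.19 over 21 pairs with every row tested, against −0.32 in 1 pair. The difference in CPM on all copies ranged between −0.39 (without *ddm1* replicate 2) and 6.32 when each library was left out, and the log2 fold change of Solyc01g106220.4_1 between −0.25 (without *ddm1* replicate 2) and 2.72. That of Solyc01g108513.1_1 stayed between 2.50 and 7.28 over its alternatives, with adjusted p-values (edgeR or DESeq2) of 0.0120 to 0.0491. That of Solyc03g097670.4_1 stayed between 1.47 and 2.17, with adjusted p-values of 0.0235 to 0.184. The causes of these shifts were not tested.

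The replicate numbers did not pair the samples. Deviations of same-numbered libraries had a correlation of −0.0055 across 20953 genes, and the numbers in titles and library names differ for *ddm1*. With the number as a block, 2 copies were up-regulated and 0 down-regulated, the adjusted p-values of edgeR being 0.0276 and 0.0407. The share of all genes in that fit is not given here.

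Of the 119 copies, 112 were not tested, 95 of them at 0, and 2 libraries per genotype give a wide spread for genes with few counts. The parts of depth and of the mapping-quality minimum in the zeros were not tested, so a low count does not show low expression of a family.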
